A study of Mus musculus with 6 samples.

Results

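The genes described here are the TAM receptors and their ligands, together with a bridging protein and a pair of receptors for the uptake of dying cells. They were taken by name, and the 8 names (Axl, Tyro3, Mertk, Gas6, Pros1, Mfge8, Lrp1 and Stab1) each matched 1 of the 39179 gene rows of the count files. All 8 passed the filter on low counts, which left 14850 genes to test. RNA-seq counts were compared between 3 tumour grafts labelled AXL KO and 3 labelled WT. The grafted cells, AXL-/- in the AXL KO group and AXL+/+ in the WT group, were grown in FVB mice. Both groups are MMTV-Neu grafts, a model in which a mammary tumour virus promoter drives the Neu (ErbB2) oncogene in mammary epithelium. A graft also holds host cells, and the labels call the hosts FVB without giving their Axl genotype. The labels state neither animal age, nor how many tumour lines were grafted, nor whether each graft grew in its own animal. The p-values therefore measure only the spread between these libraries, which may be technical.

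Libraries held between 26541009 and 32491807 counts in genes. Levels are given in CPM, the usual rate of counts by library size, here with TMM-scaled library sizes. Erbb2 averaged 9207 ± 1007 CPM in AXL KO grafts and 7193 ± 655 CPM in WT grafts (SD, n = 3 each, as for all means below), and 10 of 11 markers of tumour epithelium were high enough to test, all but Krt19. Of all tested genes, 19.1% were called higher and 18.3% lower in AXL KO grafts, together 37.4%, at a Benjamini-Hochberg adjusted p under 0.05 in the edgeR quasi-likelihood test. A member is called here by the same rule in the same fit.

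Dying cells display phosphatidylserine on their outer surface, and phagocytes read this lipid directly or through bridging proteins. Gas6 and protein S (Pros1) bind the lipid through a domain that is carboxylated with the help of vitamin K, and they activate the receptor tyrosine kinases Tyro3, Axl and Mertk. MFG-E8 (Mfge8), a protein of milk fat globules, bridges the lipid to integrins that contain the alpha v chain. LRP1 is a large endocytic receptor that takes up calreticulin-bearing particles and protease complexes, and stabilin-1 (Stab1) is a scavenger receptor of macrophages and some endothelia that also binds phosphatidylserine. TAM signalling in macrophages is known to dampen interferon and cytokine responses after uptake.

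Of the 8 members, Mfge8 and Stab1 fell in AXL KO grafts and the other 6 were not called. The lower calls, 2 of 8, stand against 18.3% of all tested genes called lower. No member was called higher in the main edgeR fit, against 19.1% of all genes, and 0 were called higher by DESeq2 or limma-voom. Gas6 was called higher in 2 of the 13 alternative fits, both of them edgeR fits. At an unadjusted p under 0.05, 1 member (Gas6) was higher, against 24.0% of all tested genes, and 2 were lower, against 23.6%. The groups did not overlap for 2 members, whereas they did not overlap for 52.1% of all tested genes. Nothing particular to the 8 genes as a group is read from these counts.

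**Figure D1:**
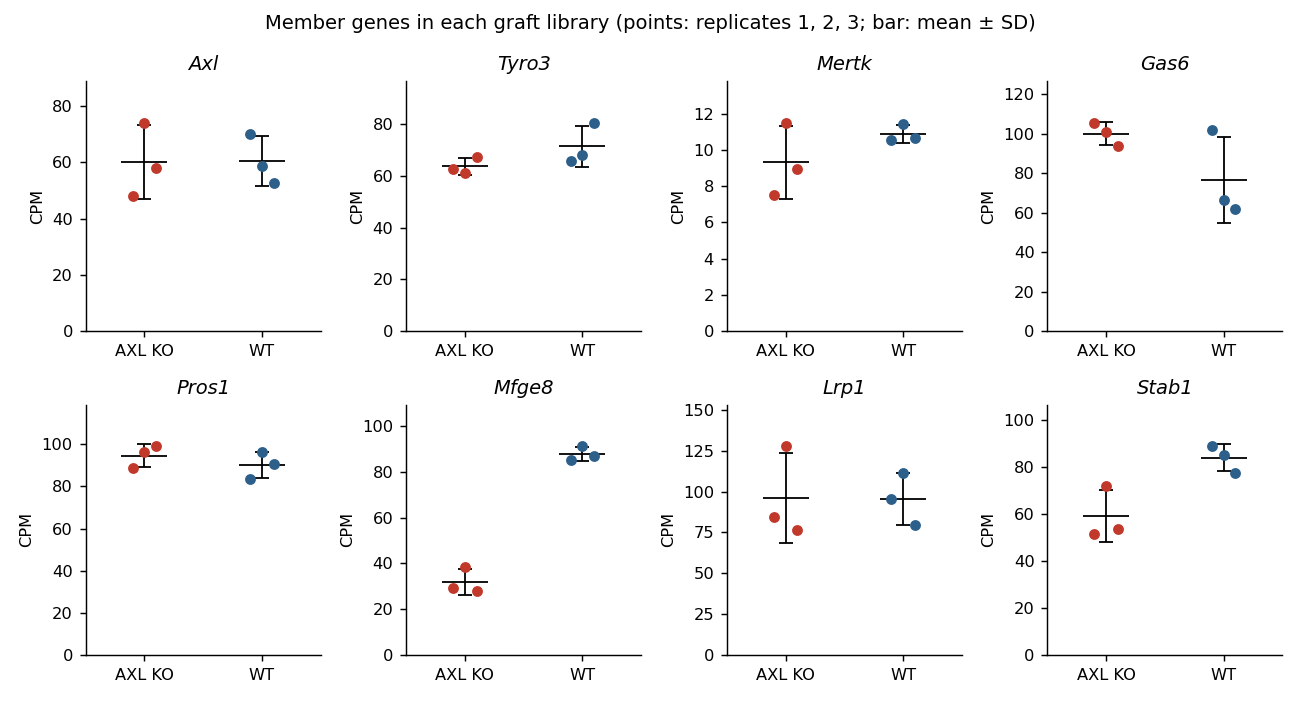
Level of each member in CPM (vertical axis, from 0) in the 3 AXL KO and 3 WT grafts, 1 point per library in the order of replicate number, with the mean and SD. The AXL KO points lie below every WT point for Mfge8 and Stab1, and the groups overlap for the other 6 genes.

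The targeted receptor, Axl (ENSMUSG00000002602, GRCm38 chromosome 7, 25757273 to 25788705, minus strand), had 48.2, 74.0 and 58.1 CPM in the AXL KO libraries 1 to 3, against 70.2, 58.5 and 52.6 CPM in the WT libraries 1 to 3. The groups overlapped fully, and the highest value was that of AXL KO replicate 2. AXL KO over WT came to -0.01 on the log2 scale (edgeR adjusted p = 0.978). The 95% interval, -0.37 to 0.36, spans 0.774 to 1.28 times the WT level. The labels do not say which part of the gene was altered, and the count covers all its exons. The Axl count therefore does not check the labels, and every direction below is between libraries as labelled.

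Tyro3 (chromosome 2, 119797733 to 119818104, plus strand), the TAM receptor best known from the nervous system, had 62.8, 61.0 and 67.4 CPM in AXL KO libraries, against 65.8, 68.3 and 80.6 CPM in WT libraries. Its log2 fold change was -0.17 ± 0.09 (SE), with an edgeR adjusted p of 0.193 and a 95% interval from -0.38 to 0.05. Mertk (chromosome 2, 128698956 to 128802894, plus strand), the TAM receptor most used by macrophages for uptake, had 7.51, 11.5 and 8.94 CPM in AXL KO libraries, against 10.5, 11.4 and 10.7 CPM in WT libraries. AXL KO replicate 2 was the highest of all 6 libraries and the other AXL KO libraries were the lowest. The log2 fold change of Mertk was -0.22 ± 0.16 (SE, edgeR adjusted p = 0.300), and without AXL KO replicate 2 it was -0.40, with an adjusted p of 0.048.

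Per kilobase of exon, Axl and Tyro3 made up most of the summed level of the 3 receptors in every library. Axl held 44.7, 54.1 and 47.1% of that sum in AXL KO libraries and 51.7, 46.0 and 40.3% in WT libraries. Tyro3 held 36.2% to 47.3% in AXL KO libraries and 39.3% to 50.2% in WT libraries, so that the larger of the pair varied between libraries of both groups, as it did per length of the longest transcript. Mertk held 8.75 ± 0.878% in AXL KO grafts and 9.64 ± 0.726% in WT grafts. The summed level of the 3 receptors was 24.4 ± 2.89 CPM per kb in AXL KO grafts and 26.1 ± 0.860 CPM per kb in WT grafts, a difference smaller than the SD of the AXL KO grafts.

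Among the ligands, Gas6 (chromosome 8, 13465374 to 13494490, minus strand), which binds all 3 receptors, had 105.5, 100.8 and 93.9 CPM in AXL KO libraries, against 101.8, 66.3 and 61.6 CPM in WT libraries. WT replicates 2 and 3 lay below every AXL KO library and WT replicate 1 lay among them. The log2 fold change was 0.39 ± 0.17 (SE, edgeR adjusted p = 0.105), and the 95% interval ran from 0.00 to 0.77. Leaving out WT replicate 1 gave a log2 fold change of 0.64, which was called (edgeR adjusted p = 0.00083). Leaving out WT replicate 3 gave 0.25 (edgeR adjusted p = 0.307). Summed fibroblast markers were also highest in WT replicate 1, at 3038 CPM, against 1812 to 2028 CPM in the other WT libraries. In AXL KO libraries 1 to 3 these sums were 1396, 2252 and 1376 CPM, while Gas6 was highest in replicate 1. Summed macrophage markers were likewise highest of the WT libraries in WT replicate 1, at 1551 CPM, against 1121 and 1115 CPM. The part of those cells in the Gas6 values was not tested.

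Pros1 (chromosome 16, 62854307 to 62929346, plus strand), the anticoagulant protein S and a ligand of Tyro3 and Mertk, had 88.6, 96.2 and 99.0 CPM in AXL KO libraries, against 83.8, 96.2 and 90.7 CPM in WT libraries. It had the smallest standard error of the 8, with a log2 fold change of 0.07 ± 0.08 (SE, edgeR adjusted p = 0.541) and a 95% interval from -0.12 to 0.25. The level of Gas6 over that of Pros1, each per kb, was 1.91, 1.68 and 1.52 in AXL KO libraries and 1.95, 1.11 and 1.09 in WT libraries. Per length of the union of exons Gas6 was the higher in all 6 libraries. Per length of the longest transcript the ratio was 1.54, 1.36 and 1.23 in AXL KO libraries and 1.57, 0.894 and 0.880 in WT libraries, so that Pros1 was the higher in WT replicates 2 and 3.

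The bridging protein gene Mfge8 (ENSMUSG00000030605, chromosome 7, 79133768 to 79149060, minus strand) showed the largest change of the 8. It had 29.3, 38.5 and 28.0 CPM in AXL KO libraries, against 85.0, 91.1 and 87.1 CPM in WT libraries. The lowest WT library was above the highest AXL KO library by more than the spread within either group. Means were 31.9 ± 5.73 CPM in AXL KO grafts and 87.7 ± 3.12 CPM in WT grafts, so that the AXL KO level was 36.4% of the WT level. The log2 fold change was -1.46 ± 0.12 (SE), or 2.75-fold lower, with a 95% interval from -1.73 to -1.18 and an edgeR adjusted p of 5.96e-05. Of the 2717 genes called lower, 340 had a larger fall.

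The stretch before the start of Mfge8 is shown with that before Stab1 because these are the members that were called. The 250 bases before each RefSeq start (GRCm38.p6, minus strand for both genes, 5′ to 3′) lie at chr7:79149061-79149310 for Mfge8 and chr14:31168642-31168891 for Stab1. Capitals mark GC boxes, the letters GGGCGG on either strand, which are bound by Sp1-family factors.
Mfge8: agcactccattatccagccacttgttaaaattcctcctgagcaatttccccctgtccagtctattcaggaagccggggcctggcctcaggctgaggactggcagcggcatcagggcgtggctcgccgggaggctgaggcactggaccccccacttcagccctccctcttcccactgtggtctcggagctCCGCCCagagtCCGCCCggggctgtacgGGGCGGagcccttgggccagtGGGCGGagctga
Stab1: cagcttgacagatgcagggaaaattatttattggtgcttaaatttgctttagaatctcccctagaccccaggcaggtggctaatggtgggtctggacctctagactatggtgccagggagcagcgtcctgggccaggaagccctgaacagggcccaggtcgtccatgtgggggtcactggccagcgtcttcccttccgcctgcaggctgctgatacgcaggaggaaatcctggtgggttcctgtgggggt
The Mfge8 stretch held 4 GC boxes and the Stab1 stretch 0, while 32.7% of 32851 promoter stretches of the same length held at least 1. The uncalled members held them too, with 1 for Axl, 3 for Tyro3, 3 for Mertk, 4 for Gas6, 5 for Pros1 and 1 for Lrp1, so that GC boxes do not separate the called members from the others. Neither stretch contained the ACGTG form of the hypoxia response core, the gamma-activated site TTCNNNGAA or the interferon response core GAAANNGAA on either strand. Those letters were found in 16.6%, 7.02% and 7.13% of the promoter stretches. The GCGTG form of the hypoxia core was not searched, and it occurs in the printed Mfge8 stretch. The GC content was 65.2% for Mfge8 and 57.2% for Stab1. These are letter matches in a short window and carry no measurement of binding.

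The alpha v integrin chain, through which MFG-E8 attaches to phagocytes, changed in the same direction. Itgav had 121, 148 and 125 CPM in AXL KO libraries, against 181, 206 and 187 CPM in WT libraries, 1.46-fold lower (edgeR adjusted p = 0.00268). Its partner chains Itgb3 and Itgb5 were not called, with log2 fold changes of 0.19 ± 0.11 and -0.16 ± 0.09 (SE) and edgeR adjusted p-values of 0.200 and 0.177. Edil3, which encodes a close relative of MFG-E8 with the same integrin-binding and lipid-binding design, was at 0.251 ± 0.320 CPM in AXL KO grafts and 0.927 ± 0.136 CPM in WT grafts. It was called lower by a small margin (edgeR adjusted p = 0.0487), and the call ended in 5 of the 6 fits that left out a library.

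Among the uptake receptors, Stab1 (ENSMUSG00000042286, chromosome 14, 31139013 to 31168641, minus strand) had 51.5, 71.8 and 53.5 CPM in AXL KO libraries, against 88.6, 85.1 and 77.4 CPM in WT libraries. The groups did not overlap, and AXL KO replicate 2 came closest to the WT grafts. Means were 58.9 ± 11.2 CPM in AXL KO grafts and 83.7 ± 5.71 CPM in WT grafts, with a log2 fold change of -0.51 ± 0.13 (SE), or 1.42-fold lower, a 95% interval from -0.80 to -0.22 and an edgeR adjusted p of 0.0143. The call ended without AXL KO replicate 1 (adjusted p = 0.0571) and without AXL KO replicate 3 (adjusted p = 0.0593), with log2 fold changes of -0.42 and -0.43. Exons of Stab1 share 112 bases with Nt5dc2 on the opposite strand, and whether counting used strand is not stated in the labels or file headers. Over the 6 libraries Nt5dc2 had 2177 counts. The 34 exonic bases that Gas6 shares with Tmem255b, also on the opposite strand, face 61 counts of that gene.

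Lrp1 (chromosome 10, 127538161 to 127621148, minus strand) had 84.3, 127.7 and 76.3 CPM in AXL KO libraries, against 95.5, 111.6 and 79.7 CPM in WT libraries. AXL KO libraries held both the highest and the lowest value. AXL KO over WT was 0.01 on the log2 scale (edgeR adjusted p = 0.979), and its 95% interval ran from -0.43 to 0.44. Without AXL KO replicate 2 it was -0.25 (edgeR adjusted p = 0.188), and the sign also turned in 4 other alternative fits, all of them uncalled.

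**Figure D2:**
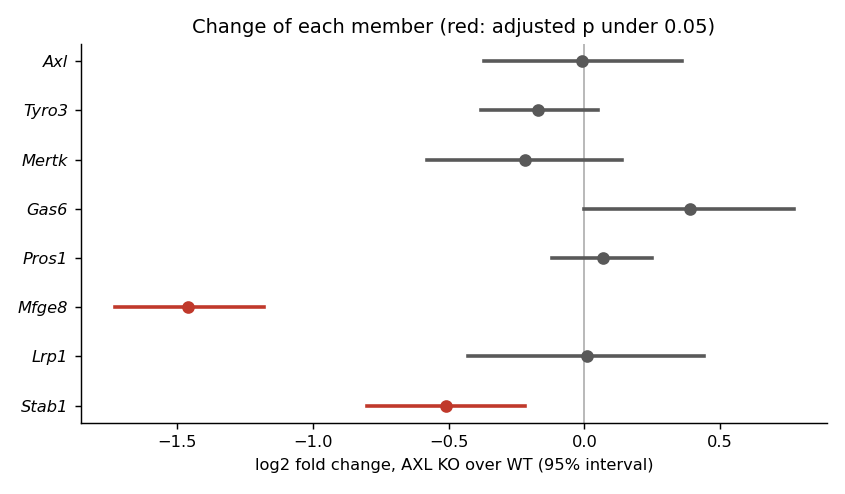
Log2 fold change of each member, AXL KO over WT (horizontal axis), with its 95% interval from the edgeR fit. The intervals of Mfge8 (-1.73 to -1.18) and Stab1 (-0.80 to -0.22) lie below 0 and are drawn in red, and the interval of Gas6 starts at 0.00.

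AXL KO replicate 2 gave the highest AXL KO value for Axl, Mertk, Mfge8, Lrp1 and Stab1, and the highest of all 6 libraries for Axl, Mertk and Lrp1. The same library had the highest summed macrophage markers of the 6, at 1760 CPM, against 1095 and 997 CPM in AXL KO replicates 1 and 3. Lyz2, the largest of these markers there, had 665 CPM, against 237 and 213 CPM. In WT libraries 1 to 3 the sums were 1551, 1121 and 1115 CPM. WT replicate 1 had the highest WT values of Axl and Stab1 but the lowest of Mertk and Mfge8. In AXL KO replicate 2 summed fibroblast markers were 2252 CPM, against 1396 and 1376 CPM in the other AXL KO libraries. Its summed tumour epithelium markers were the lowest of the AXL KO libraries, at 12341 CPM, against 14597 and 13727.5 CPM. Most of that sum was Erbb2, at 10018, 8080 and 9523 CPM in AXL KO libraries 1 to 3. Among the AXL KO libraries Epcam, Krt8 and Krt18 were lowest in replicate 3. Cdh1, Elf5, Ehf, Cldn3 and Cldn7 were lowest in replicate 2, and Esr1 in replicate 1. Of 17 macrophage markers 2 were called higher and 1 lower, and of 12 fibroblast markers 1 was called, lower. That is 17.6% and 8.33% called, below the 37.4% of all tested genes. All of these markers had counts. A graft holds tumour and host cells together, and in bulk RNA fewer cells of a type cannot be told apart from less RNA per cell. The part of these cells in the 5 members was not tested.

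Like Mfge8 and Stab1, most tested markers of vessels and red cells were called lower in AXL KO grafts, against 18.3% of all tested genes. Of 14 endothelial markers 12 were called lower, with summed levels of 230 to 301 CPM in AXL KO libraries and 387 to 438 CPM in WT libraries. Of 10 pericyte and smooth muscle markers 8 were called lower, with sums of 387 to 489 CPM in AXL KO libraries and 641 to 719 CPM in WT libraries. All 6 tested erythroid markers of 8 were called lower, with sums of 152 to 237 CPM in AXL KO libraries and 647 to 1023 CPM in WT libraries. No marker of these lists was at 0. In tumour epithelium 3 of 10 tested markers were called higher and 4 lower, with sums of 12341 to 14597 CPM in AXL KO libraries and 12195 to 13503 CPM in WT libraries. Most of these sums was Erbb2, called higher with Esr1 and Ehf, so they do not show the rest of the list. The lower calls were Epcam (mean 1388 CPM in AXL KO grafts, 1998 CPM in WT grafts), Krt8 (612 and 831 CPM), Krt18 (769 and 1168 CPM) and Cldn3 (459 and 550 CPM). The part of vessel, red or epithelial cells in the Mfge8 and Stab1 values was not tested.

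**Figure D3:**
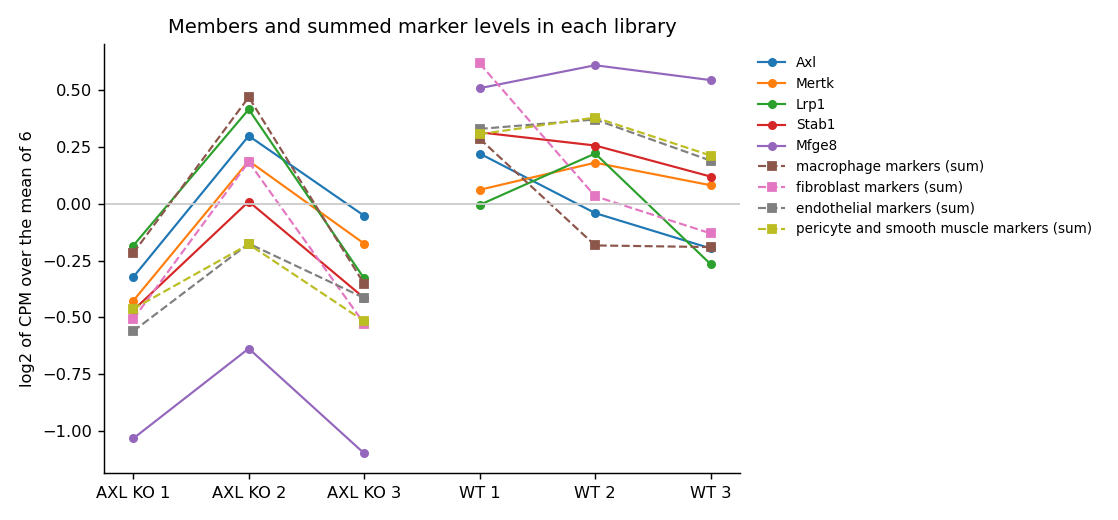
Level of 5 members (circles) and summed level of 4 marker lists (squares) in each library, as the log2 of CPM over the mean of the 6 libraries; lines join the points of a gene or list within a group and show no order. The 5 members and 4 lists drawn are ones whose highest AXL KO value lay in replicate 2, so its place above the others follows from that choice. Tyro3, Gas6, Pros1 and the tumour epithelium markers were not highest there and are not drawn. Of the lines drawn, Mfge8 separates the groups most widely.

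Levels were compared between members per kilobase, with the union of all annotated exons as length. In AXL KO grafts the order was Gas6 at 39.3 ± 2.30, Pros1 at 23.1 ± 1.31, Axl at 11.9 ± 2.59, Tyro3 at 10.3 ± 0.530, Mfge8 at 6.79 ± 1.22, Stab1 at 5.73 ± 1.08, Lrp1 at 5.42 ± 1.56 and Mertk at 2.15 ± 0.466 CPM per kb. Neighbours whose libraries overlapped were Axl with Tyro3, Mfge8 with Stab1 and Stab1 with Lrp1. In WT grafts Mfge8 came next after the ligands, at 18.7 ± 0.665 CPM per kb, with Gas6 at 30.0 ± 8.62 and Pros1 at 22.1 ± 1.52 CPM per kb. Axl and Tyro3 overlapped in WT grafts too, at 12.0 ± 1.78 CPM per kb for Axl and 11.5 ± 1.28 CPM per kb for Tyro3, and Stab1, Lrp1 and Mertk followed in that order without overlap. The order depends on the length used, most for Mfge8, whose longest transcript has 2330 bases and the union of its exons 4694. With the longest transcript Mfge8 lay at 13.7 CPM per kb in AXL KO grafts and 37.6 CPM per kb in WT grafts, where it ranked first and overlapped Gas6. Gas6 and Pros1 then overlapped in WT grafts, and Tyro3 stood before Axl in both groups with overlapping libraries.

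**Figure D4:**
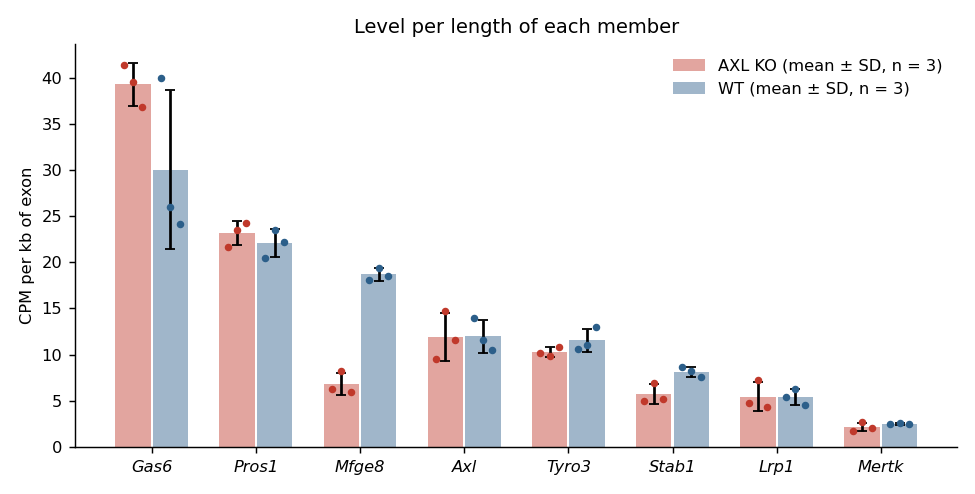
Level per length of each member in CPM per kb of exon (vertical axis, from 0), as mean and SD of 3 libraries with 1 point per library, AXL KO beside WT. Gas6 and Pros1 have the highest levels and Mertk the lowest in both groups, and Mfge8 is the gene whose bars differ most.

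The authors' deposited table gives the same 2 calls. Turned to AXL KO over WT, the authors' deposited table has a log2 fold change of -1.45 ± 0.13 (SE) for Mfge8, with the authors' adjusted p of 4.88e-27, and of -0.51 ± 0.14 (SE) for Stab1, with an adjusted p of 0.00116. For Gas6 the authors' deposited table has 0.38 ± 0.17 (SE) with an adjusted p of 0.068, and its adjusted p-values for the other 5 members are 0.249 or higher.

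For each member the 2 genes with the most similar pattern over the 6 libraries were found among 11387 others whose mean log2 CPM was 2 or more, by the root mean square difference of log2 CPM after each gene was centred on its mean. For Mfge8 these were Mdfi and Trip6, at differences of 0.0453 and 0.0790, with log2 fold changes of -1.47 and -1.46. For Stab1 they were Ccdc158 and She, at 0.0254 and 0.0344. For Axl they were Gpc1, a cell-surface heparan sulphate proteoglycan, and Plscr2, a member of the phospholipid scramblase family, at 0.0849 and 0.0902. For Gas6 they were Gmfg and Ndufaf3, at 0.0862 and 0.100. The pairs were Acox2 and Gm7666 for Tyro3, Grk5 and Pls3 for Mertk, D930015E06Rik and Txndc16 for Pros1, and Abcc5 and Eepd1 for Lrp1, at 0.0143 to 0.0985. This measure only describes likeness in 6 libraries.

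Related genes were read from 8 lists that hold 156 entries, of which 141 were tested, 23 were called higher and 29 lower. Between 21.7% and 57.1% of a list was called, against 37.4% of all tested genes. The median log2 fold change of all tested genes was 0.00.

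Among 19 tested receptors for phosphatidylserine and uptake, 3 were called higher and 4 lower, with a median log2 fold change of -0.25. Scarb1, a scavenger receptor for lipoproteins that also binds phosphatidylserine, fell to 93.8 ± 4.41 CPM in AXL KO grafts, against 142.5 ± 4.81 CPM in WT grafts (edgeR adjusted p = 0.000401). Fcgr1, the high-affinity IgG receptor and also 1 of the macrophage markers, rose to 16.7 ± 2.64 CPM in AXL KO grafts, against 7.74 ± 0.856 CPM in WT grafts (edgeR adjusted p = 0.000656). Itgav is given above, and Megf10, an engulfment receptor of glia, fell 2.48-fold at under 2 CPM in every library. The other calls were Cd300lf and Timd2, higher, and Cd14, lower. Their calls ended in 4, 6 and 2 of the 13 alternative fits.

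Of 15 tested bridging and eat-me proteins 1 was higher and 3 were lower, with a median of -0.06. Thbs1, thrombospondin-1, which links dying cells to phagocytes and is also a matrix protein, rose to 1312 ± 92.5 CPM in AXL KO grafts, against 882 ± 113 CPM in WT grafts (edgeR adjusted p = 0.00307). Lgals3, the lectin galectin-3 and a described MerTK ligand, was at 36.6, 78.1 and 28.1 CPM in AXL KO libraries, against 86.6, 149.8 and 133.6 CPM in WT libraries (edgeR adjusted p = 0.0148), and its call ended when AXL KO replicate 1 or WT replicate 3 was left out. Anxa5, a phosphatidylserine-binding annexin, fell 1.37-fold, a call lost in 3 fits without a library, and Edil3 is given above. C1qa, a chain of the complement opsonin C1q, was not called, at 0.12 ± 0.14 (SE) on the log2 scale. Only 1 gene of this list was called when AXL KO replicate 1 or WT replicate 3 was left out, and 2 when AXL KO replicate 3 was. These fits also called fewer of all tested genes, 2000 to 2051 higher and 1733 to 1966 lower, against 2835 and 2717 in the main fit.

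Of 21 tested genes of the engulfment machinery 6 were higher and 6 lower, with a median of 0.00. Elmo1, an adaptor that activates Rac with Dock proteins, rose to 190.4 ± 19.9 CPM in AXL KO grafts, against 116 ± 14.1 CPM in WT grafts (edgeR adjusted p = 0.0014). The leukocyte genes Dock2 and Rac2 rose 1.56- and 1.47-fold, beside T cell and NK marker sums of 43.3 to 44.6 and 31.4 to 43.0 CPM in AXL KO libraries and 26.9 to 35.6 and 3.02 to 5.02 CPM in WT libraries. Of these markers 10 of 12 and 9 of 9 tested were called higher, against 19.1% of all tested genes, and the part of those cells was not tested. The Rac2 call ended when WT replicate 3 was left out (edgeR adjusted p = 0.0554). Ptk2, the focal adhesion kinase, and Vav3, an exchange factor of small GTPases, fell 1.27- and 1.37-fold. Leaving out AXL KO replicate 3 or WT replicate 3 left 7 genes of the list called in place of 12. Of all tested genes these fits called 2000 and 2051 higher and 1733 and 1966 lower, against 2835 and 2717 in the main fit.

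Of 17 tested genes for find-me signals and lipid exposure 4 were higher and 3 lower, with a median of 0.13. Sphk1, the kinase that makes sphingosine 1-phosphate, had 2.27, 3.34 and 2.73 CPM in AXL KO libraries, against 24.3, 25.6 and 21.2 CPM in WT libraries, which is 8.48-fold lower (edgeR adjusted p = 5.38e-06). P2ry2, a receptor for extracellular nucleotides, fell 2.78-fold and Cx3cl1, the chemokine fractalkine, 1.36-fold. The phospholipid flippase gene Atp11a and its partner Tmem30a rose 1.72- and 1.23-fold, and the scramblase gene Xkr8 rose 1.54-fold. The Tmem30a call ended when WT replicate 3 was left out (edgeR adjusted p = 0.0599) and the Xkr8 call when AXL KO replicate 3 was left out (edgeR adjusted p = 0.0759).

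Of 17 tested genes for lipid sensing and efflux 2 were higher and 5 lower, with a median of -0.29. The cholesterol exporter gene Abcg1 fell to 38.2 ± 6.74 CPM in AXL KO grafts, against 79.9 ± 13.8 CPM in WT grafts (edgeR adjusted p = 0.00103). The nuclear receptor genes Rxrb and Ppard fell 1.37- and 1.51-fold, Npc2, a lysosomal cholesterol carrier, 1.36-fold, and Ucp2 1.29-fold. Srebf1, a regulator of lipid synthesis, rose 1.48-fold and the lysosomal lipase gene Lipa 1.28-fold, with the Lipa call lost in 6 of 13 alternative fits. Ucp2 was not called without AXL KO replicate 3 (adjusted p = 0.061).

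Of 13 tested genes for vitamin K dependent carboxylation and processing 1 was higher and 2 were lower, with a median of -0.01. Ggcx, the carboxylase that modifies Gas6 and protein S, had 26.4, 27.4 and 26.9 CPM in AXL KO libraries, against 39.3, 40.9 and 39.5 CPM in WT libraries, with no overlap. It fell 1.48-fold (edgeR adjusted p = 0.000509), while the vitamin K reductase genes Vkorc1 and Vkorc1l1 both lay at a log2 fold change of -0.01. Mgp, a carboxylated matrix protein, fell 3.19-fold and the protease gene Furin rose 1.32-fold. Pcsk6, a related protease, was not called, at 0.42 ± 0.15 (SE) on the log2 scale (edgeR adjusted p = 0.0559). Leaving out AXL KO replicate 3 or WT replicate 1 gave 5 calls in this list. Of all tested genes these fits called 2000 and 2721 higher and 1733 and 2616 lower, against 2835 and 2717 in the main fit.

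Of 23 tested genes for receptor shedding, degradation and signalling adaptors 4 were higher and 1 was lower, with a median of 0.00. Pik3r1, the regulatory subunit through which TAM receptors engage PI3 kinase, rose to 331.6 ± 15.8 CPM in AXL KO grafts, against 210.3 ± 11.8 CPM in WT grafts (edgeR adjusted p = 0.000333). The adaptor gene Nck1 rose 1.42-fold, and Socs1, a cytokine signalling inhibitor that TAM receptors induce in dendritic cells, rose 3.48-fold at a mean of 2.11 CPM in AXL KO grafts, against 0.599 CPM in WT grafts. Of 10 dendritic cell markers 7 were called higher, against 19.1% of all tested genes. Their sums were 44.0 to 47.3 CPM in AXL KO libraries and 20.1 to 22.0 CPM in WT libraries. Itgae (mean 13.3 against 1.32 CPM) and Itgax (16.7 against 9.30 CPM) made up most of that rise. Batf3, Zbtb46 and Cd209a were not called, with log2 fold changes of 0.21, 0.08 and -0.76. T cell and NK markers rose too, as given above. The part of dendritic, T or NK cells in the Socs1 values was not tested. Tenc1, a tensin that binds AXL, fell 1.70-fold. Adam10, a protease that sheds AXL, rose 1.16-fold (edgeR adjusted p = 0.0381), and this call ended in 7 of 13 alternative fits.

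Of 16 tested LRP1 ligands, plasminogen system genes and related receptors 2 were higher and 5 lower, with a median of -0.37. A2m, the protease trap alpha-2-macroglobulin and a classical LRP1 ligand, had 24.2, 44.4 and 26.9 CPM in AXL KO libraries, against 91.1, 117.2 and 114.9 CPM in WT libraries, 3.38-fold lower (edgeR adjusted p = 0.000443). Sorl1, a sorting receptor, rose 1.63-fold. Thbd, the anticoagulant receptor thrombomodulin, fell 1.94-fold, and F3, Plat and Lrp8 were also lower, each losing its call in 2 to 4 fits without a library. Without AXL KO replicate 1 only 4 genes of the list were called, and without AXL KO replicate 2 it was 13. Of all tested genes these fits called 2001 and 2717 higher and 1850 and 2828 lower, against 2835 and 2717 in the main fit.

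**Figure D5:**
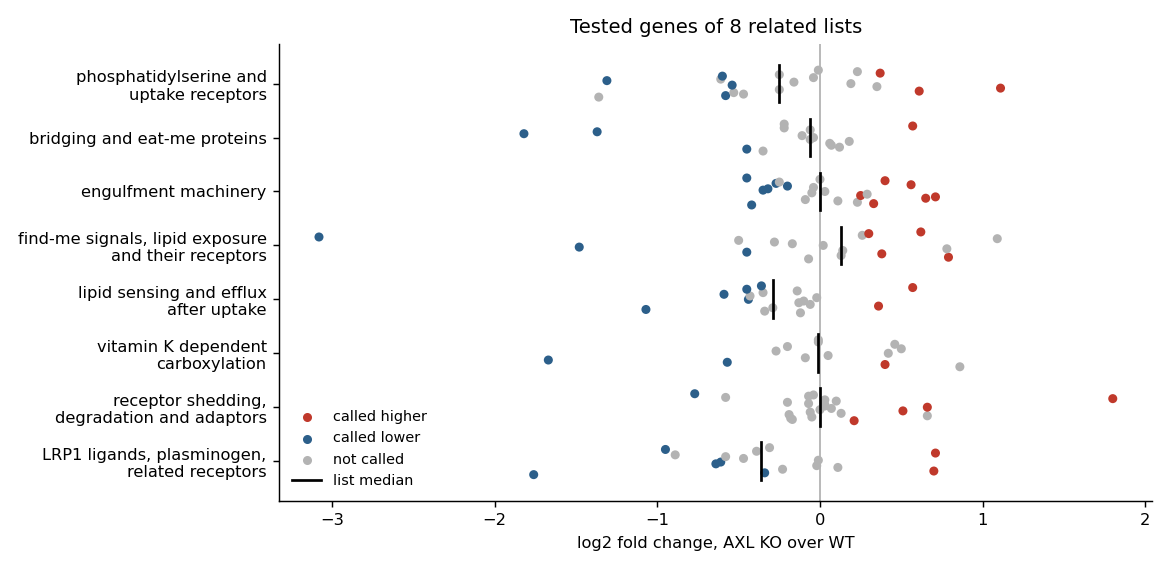
Log2 fold change of each tested gene of the 8 lists, AXL KO over WT (horizontal axis), 1 point per gene, with the list median as a bar. Called genes lie on both sides of 0 in every list, and the list medians run from -0.37 to 0.13.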

How the data were processed

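The labels' protocols name Trizol and column purification of total RNA and standard Illumina libraries. The submitters' processing notes name CASAVA 1.8, TopHat2 2.0.10, HTSeq 0.5.3, DESeq2 1.4.5 and build GRCm38, without roles or settings. The deposited files hold raw counts per gene, and 5 rows that name no gene were left out (alignments not unique, 25.7% to 29.0%; in no gene, 4.41% to 6.88%; ambiguous, 0.717% to 1.09%). The authors' deposited table holds a signal, the count over 1 size factor per library, with log2 fold changes of WT over AXL KO, a test score, and p-values.

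Genes were kept with filterByExpr (minimum count 10, minimum total 15) and tested by quasi-likelihood in edgeR 4.0.16 (R 4.3.3), with TMM scaling, Benjamini-Hochberg adjustment over 14850 genes and a threshold of 0.05. The fit was also run on simulated data in which few genes changed, a check that does not cover data where 37.4% of genes are called. The smallest two-sided p of an exact permutation test of 3 against 3 libraries is 0.1, so tests came from the model across all genes. Gene positions and exon lengths came from GENCODE M21 (GRCm38), promoters from RefSeq (GRCm38.p6). Alternatives were DESeq2 1.42.0, limma-voom (limma 3.58.1), DESeq2 size factors, upper-quartile factors, no filter, a mean log2 CPM of at least 2, a replicate block, and each library left out.

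The members and lists were chosen with earlier results of these data known. Genes named were the 8 members, from each pathway list up to 4 tested genes with the smallest p and any further gene needed for a count of 5 or fewer, up to 2 of the highest genes of a marker list, and the 2 closest patterns of each member. Itgb3, Itgb5, C1qa, Rac2, Vkorc1 and Vkorc1l1 fall outside this rule and were chosen after their values were seen. Some genes counted in the lists are not reported here by name.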

Additional observations from a re-analysis of the deposited data

How the results depend on the processing

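Mfge8 kept its call and direction in all 13 alternative fits, with log2 fold changes from -1.61 to -1.37. Without single libraries the log2 fold change ranged from -0.67 to -0.42 for Stab1, from 0.25 to 0.64 for Gas6, from -0.40 to -0.09 for Mertk, from -0.18 to 0.13 for Axl and from -0.25 to 0.16 for Lrp1. Members called higher then numbered 0 to 1 and members called lower 1 to 3. Values near 0 changed sign, with Axl at 0.00 with no filter and Lrp1 at -0.01 with upper-quartile factors, -0.01 with limma-voom and -0.02 with the replicate block. Left-out libraries gave 2000 to 2846 genes called higher of all tested and 1733 to 2828 called lower. Calls then numbered 1 to 6 in the bridging list, 7 to 11 in the engulfment list, 4 to 13 in the LRP1 list and 3 to 5 in the carboxylation list. The carboxylation list had 6 calls with DESeq2 and 6 with no filter. Of 52 called genes of the lists, 20 lost the call in at least 1 alternative fit. The share of all called genes that did so is not given here, so nothing particular to the lists is read from this count.

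Same-numbered AXL KO and WT libraries did not deviate together (correlations of -0.0578, -0.125 and 0.0877 over genes, and no library closest to its own number). No pairing by number was therefore seen, but a weak pairing could be missed with 3 libraries per group. With the replicate block Gas6 had a log2 fold change of 0.42 and an edgeR adjusted p of 0.0453, giving 1 member called higher, and all genes gave 2458 higher and 2373 lower. The cause of these shifts was not tested. Mertk, at 212 to 372 counts per library, has the least counting precision of the 8.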
